A study of Mus musculus with 12 samples.

Results

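The genes described here are 10 genes of the major histocompatibility complex (MHC) class I presentation pathway and the immunoproteasome, measured in mouse fetal liver alveolar-like macrophages (FLAMs). They are H2-K1, H2-D1, B2m, Tap1, Tap2, Tapbp, Psmb8, Psmb9, Psmb10 and Nlrc5, chosen by symbol from the 40847 rows of the count table. FLAMs are cells taken from mouse fetal liver and grown in granulocyte-macrophage colony-stimulating factor (GM-CSF), which here was 30 ng/ml in all 4 groups. Pam3CSK4 (Pam3) is a synthetic lipopeptide that activates Toll-like receptor 2 (TLR2), and TGFβ is a growth factor present in the lung. The untreated group had neither, the TGFβ group had recombinant human TGFβ1 at 20 ng/ml, the Pam3 group had Pam3 at 25 ng/ml for 18 h, and the Pam3+TGFβ group had both. Each group had 3 libraries of poly(A) RNA, 12 in all. The title of the series is about a TGFβ-dependent type I interferon answer to TLR2, and the comparisons below measure the class I pathway in that design. The labels used here give no strain, sex or number of donor embryos, nor do they say that replicates came from separate cultures, so p-values measure the spread between these libraries, which may be technical.

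Class I molecules show peptides from inside the cell to CD8 T cells. A heavy chain (H2-K1 or H2-D1 here) pairs with β2-microglobulin, the product of B2m. Peptides are cut by the proteasome, in which the inducible subunits Psmb8, Psmb9 and Psmb10 can replace the constitutive Psmb5, Psmb6 and Psmb7. The transporter made of Tap1 and Tap2 carries peptides into the endoplasmic reticulum, where tapasin (Tapbp) holds empty class I molecules at the transporter. Nlrc5 is a transactivator of class I genes that acts with RFX, CREB/ATF and NF-Y factors at a promoter element of those genes, and interferons are known inducers of most of the pathway.

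Library totals ran from 34036650 to 44374115 counts, and all 10 genes passed the filter on low counts, as did 14749 rows in all. Macrophage markers were high in every library: the sum of 10 markers ran from 33413 to 38285 CPM (the count rate of edgeR, scaled by library size with TMM factors) in untreated, 17658 to 18580 in TGFβ, 37488 to 38705 in Pam3 and 26964 to 27692 in Pam3+TGFβ. Lyz2 (lysozyme) made up most of this sum, at 29824 ± 2120 CPM in untreated and 15248 ± 460 CPM in TGFβ (SD, n = 3). Markers of alveolar macrophages differed in direction: between untreated and TGFβ, Siglecf went from 32.1 ± 2.1 to 300.4 ± 9.99 CPM, Marco from 2147 ± 266 to 123.3 ± 6.27 CPM and Itgax from 335.3 ± 11.4 to 167.9 ± 7.68 CPM. General macrophage markers also differed among themselves between these groups: Adgre1 went from 303.4 ± 12 to 145.1 ± 11.7 CPM, Mertk from 223.2 ± 7.41 to 222.2 ± 9.13 CPM, Spi1 from 561.8 ± 70.7 to 527.6 ± 11.6 CPM and Fcgr1 from 81.1 ± 6.02 to 91.3 ± 3.24 CPM. With Pam3, Fcgr1 went from 88.1 ± 5.81 to 171.2 ± 4.91 CPM in the presence of TGFβ. The 5 T and NK cell markers, with Ifng among them, were at 0 in every library. The 5 dendritic cell markers summed to 4.60 to 5.70 CPM in untreated, 1.23 to 1.94 in TGFβ, 3.88 to 5.18 in Pam3 and 1.69 to 2.53 in Pam3+TGFβ, and those of neutrophils and their precursors summed to 12.9 to 15.6 CPM in untreated, 2.96 to 4.21 in TGFβ, 15.6 to 15.9 in Pam3 and 4.13 to 5.44 in Pam3+TGFβ. Zbtb46 made up most of the dendritic cell sum, at 4.64 ± 0.446 CPM in untreated and 1.42 ± 0.45 CPM in TGFβ. S100a8 made up most of the neutrophil sum, at 13.8 ± 1.43 and 3.07 ± 0.548 CPM in these groups. Ngp, of the same list, was at 0.346 ± 0.108 and 0.623 ± 0.376 CPM. The 4 hepatocyte markers summed to 5.80 to 5.87 CPM in untreated, 5.83 to 6.25 in TGFβ, 6.40 to 7.70 in Pam3 and 8.41 to 10.1 in Pam3+TGFβ, nearly all of it Afp, with Ttr at 0 in every library and Alb and Apoa1 at 0 or near it. The 3 endothelial markers summed to 1.68 to 1.89 CPM in untreated, 0 to 0.277 in TGFβ, 1.33 to 2.48 in Pam3 and 0.616 to 0.815 in Pam3+TGFβ. Sums of the B cell, erythroid, fibroblast and mast cell markers were at most 1.28 CPM in any library. The part of these marker differences in the results below was not tested. Among the untreated libraries, replicate 2 had the highest level of each of the 10 genes except Nlrc5. Because RNA was taken from whole cultures, a change in the share of cells that express a gene and a change per cell cannot be told apart.

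In cells without TGFβ, Pam3 raised 7 of the 10 genes and lowered 0 (edgeR, and equally 0 at an unadjusted p under 0.05, with DESeq2 and with limma), while across all genes with a test 18.3% were called in this comparison (9.62% higher and 8.66% lower). In cells with TGFβ it raised all 10, against 38.5% of genes called (20.4% higher and 18.1% lower). Genes count as called here at an adjusted p under 0.05 in edgeR's quasi-likelihood test, with Benjamini-Hochberg adjustment over every tested gene. The median log2 fold change of the 10 genes was 0.27 without TGFβ and 0.91 with it (all tested genes 0.00 and -0.02). The test of the difference between these responses (with TGFβ minus without, called the interaction) was called higher for all 10 genes, with a median of 0.61, against a background of 15.9% (10.3% higher and 5.67% lower). With upper-quartile scaling in place of TMM, calls over all genes split as 2477 up and 3489 down for Pam3 with TGFβ (3008 and 2670 with TMM) and as 1255 up and 1097 down for the interaction (1516 and 836), and all 10 genes were still called higher in both. TGFβ by itself gave a mixed picture. It raised 2 of the 10 genes and lowered 4 in the absence of Pam3, against a background of 51% (22.9% higher and 28.1% lower), and it raised 7 and lowered 1 in the presence of Pam3, against a background of 45.3% (21.5% higher and 23.8% lower). The split in the absence of Pam3 became 4 higher and 3 lower without untreated replicate 2, where Psmb8 (edgeR adjusted p 0.0116) and Psmb9 (0.0281) were gained and Psmb10 (0.27) was lost. It became 3 higher and 3 lower with upper-quartile scaling. The interaction is built from the same libraries as the other contrasts, and the 2 Pam3 responses share none.

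**Figure D1:**
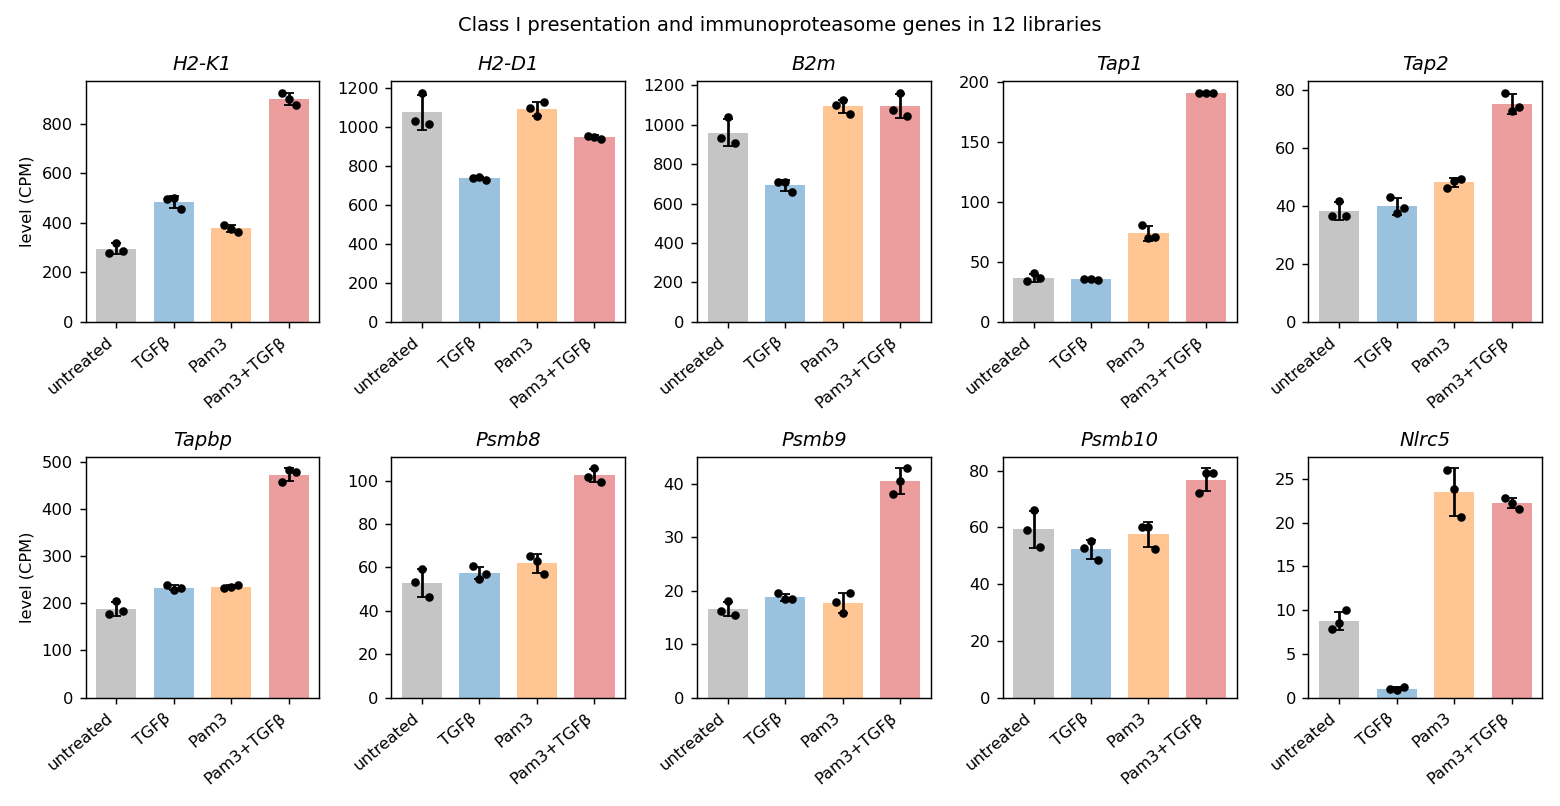
Level in CPM (vertical axis, linear from 0) of each gene in the 4 groups. Dots are the 3 libraries of a group, bars their mean and error bars the SD. Most genes are highest in Pam3+TGFβ, where Tap1 is at 190.8 CPM on average, whereas H2-D1 and B2m are lowest in TGFβ and Nlrc5 falls there to 0.996 CPM.

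The classical heavy chains came first. H2-K1 (chromosome 17, 34214987 to 34219321, minus strand of GRCm39, 8 exons in the canonical transcript) was at 280.0, 320.4 and 287.4 CPM in the untreated libraries and 495.1, 502.0 and 456.8 CPM in the TGFβ libraries. With Pam3 it was at 392.7, 375.1 and 364.8 CPM, and with Pam3+TGFβ at 926.2, 901.0 and 875.5 CPM. The 4 groups did not overlap, and every TGFβ library was above every Pam3 library. Pam3 raised H2-K1 by 0.35 on the log2 scale without TGFβ (SE 0.0549, edgeR adjusted p 3.23e-05) and by 0.89 with it (SE 0.0551, adjusted p 7.38e-13). TGFβ raised it by 0.71 without Pam3 (SE 0.0551, adjusted p 4e-11) and by 1.25 with Pam3 (SE 0.0556, adjusted p 7.63e-16).

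H2-D1 (chromosome 17, 35481691 to 35486475, plus strand, 8 exons), the other heavy chain, ordered the groups differently. It was at 1034, 1179 and 1019 CPM in untreated, 742.0, 742.4 and 727.1 CPM in TGFβ, 1098, 1056 and 1129 CPM in Pam3, and 956.6, 951.9 and 939.2 CPM in Pam3+TGFβ. Libraries with TGFβ were below all libraries without it, and the untreated and Pam3 libraries overlapped. TGFβ lowered H2-D1 by -0.55 without Pam3 (SE 0.0554, edgeR adjusted p 5.9e-09) and by -0.21 with Pam3 (SE 0.0552, adjusted p 0.0034). Pam3 raised it by 0.36 with TGFβ (SE 0.0553, adjusted p 6.6e-06), and the value without TGFβ was 0.02 (SE 0.0552, adjusted p 0.842).

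Both TGFβ effects had opposite signs in the 2 heavy chain genes. Within a library, the counts of H2-K1 per kb of canonical transcript were 0.354 to 0.369 times those of H2-D1 in untreated, 0.422 to 0.467 in Pam3, 0.822 to 0.884 in TGFβ and 1.22 to 1.27 in Pam3+TGFβ. This ratio does not depend on library scaling, and its groups did not overlap. Of the 50-base windows in the transcripts of H2-K1, 11.3% also occur in another gene, 6.23% in H2-D1, and for H2-D1 the figure is 12.6%, of which 7.03% in H2-K1, so reads that lie within those stretches are uncertain between the rows. The read format stated for the series needs more cycles than the sequencing kit named for it has, so read length is uncertain, and a read or pair longer than such a stretch can reach beyond it. Antisense lncRNA genes cover 26.8% of the exonic bases of H2-K1 and 24.2% of those of H2-D1, and the strand setting of the counting is not given in the sources used here.

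To reduce the effect of the division of reads among paralogs, 15 H2 rows were summed before the fit: H2-K1, H2-D1, H2-Q1, H2-Q2, H2-Q4, H2-Q6, H2-Q7, H2-Q10, H2-T3, H2-T10, H2-T22, H2-T23, H2-T24, H2-M2 and H2-M3. Division with rows outside this sum remains. With H2-Q5, H2-Q9, H2-K2 and H2-Bl added to it, the Pam3 response without TGFβ was 0.1534 (edgeR adjusted p 0.0581). The sum was at 1495, 1705 and 1481 CPM in untreated, 1355, 1359 and 1304 in TGFβ, 1760, 1698 and 1754 in Pam3, and 2222, 2198 and 2150 in Pam3+TGFβ. H2-D1 made up 68.8% to 69.2% of the summed counts in untreated and 43.1% to 43.7% in Pam3+TGFβ, and H2-K1 18.7% to 19.4% and 40.7% to 41.7%. Pam3 raised the sum by 0.71 with TGFβ (SE 0.0561, edgeR adjusted p 1.02e-10), and the value without TGFβ was 0.15 (SE 0.0558, adjusted p 0.0557). That value lay at the threshold: without untreated replicate 2 it was 0.225 (adjusted p 0.00111), and it was also called without TGFβ replicate 2 (0.0474), TGFβ replicate 3 (0.0468) or Pam3+TGFβ replicate 2 (0.0491). TGFβ lowered the sum by -0.22 without Pam3 (SE 0.0559, adjusted p 0.00178) and raised it by 0.33 with Pam3 (SE 0.0559, adjusted p 1.94e-05). The interaction was 0.55 (SE 0.079, adjusted p 9.89e-06).

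B2m (chromosome 2, 121977957 to 121983594, plus strand, 4 exons) encodes the light chain that pairs with H2-K1 and H2-D1. The gene was at 933.5, 1039 and 907.4 CPM in untreated and 711.0, 708.6 and 660.7 CPM in TGFβ. It was at 1099, 1125 and 1056 CPM in Pam3 and 1077, 1164 and 1047 CPM in Pam3+TGFβ. The TGFβ libraries lay below all others, and the Pam3 groups with and without TGFβ overlapped. TGFβ lowered B2m by -0.47 without Pam3 (SE 0.0584, edgeR adjusted p 2.04e-07), and with Pam3 the value was 0.00 (SE 0.0582, adjusted p 0.967). Pam3 raised it by 0.66 with TGFβ (SE 0.0585, adjusted p 8.97e-10) and by 0.19 without (SE 0.0582, adjusted p 0.0246). The last call was lost without untreated replicate 1 (adjusted p 0.0682), untreated replicate 3 (0.119), Pam3 replicate 1 (0.0711) or Pam3 replicate 2 (0.114).

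The promoters of these 3 genes are shown because they are the members in which a script found, in the 250 bases before the RefSeq start, the letters TGACG followed on the same strand by ATTGG. The first is a CREB/ATF half-site and the second a CCAAT box read on the other strand, and together they resemble the element at which RFX, CREB/ATF, NF-Y and Nlrc5 are known to meet. Each line runs 5′ to 3′ along the gene, with the first and last base given relative to the start. The capitals mark matches to the NF-kB consensus and to the interferon-response core AANNGAAA, each on either strand, and to TGACG and ATTGG.
H2-K1: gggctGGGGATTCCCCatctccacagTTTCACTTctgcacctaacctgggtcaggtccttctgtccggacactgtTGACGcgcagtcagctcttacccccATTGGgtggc
H2-D1: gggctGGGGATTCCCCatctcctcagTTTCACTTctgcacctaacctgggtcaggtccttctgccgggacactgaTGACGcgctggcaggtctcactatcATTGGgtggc
B2m: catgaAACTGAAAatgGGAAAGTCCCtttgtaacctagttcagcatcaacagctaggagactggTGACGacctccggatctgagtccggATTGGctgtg
The H2-K1 stretch spans -116 to -7 (chr17:34219328-34219437, minus strand of GRCm39), that of H2-D1 -176 to -67 (chr17:35481894-35482003, plus strand), and that of B2m -142 to -44 (chr2:121978026-121978124, plus strand). H2-K1 and H2-D1 were identical at 99 of the 110 bases (90%), and both carry the NF-kB match first and the interferon-response match second, in the order reversed in B2m. In all 3, TGACG and ATTGG were 20 bases apart.

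The sequences are from the RefSeq promoter table, whose build is GRCm38.p6, and were placed on GRCm39 by exact match. The nearest start of any GENCODE transcript of the gene lay within 4 bases of the RefSeq start for these 3 genes. Annotated exons, of any gene, cover 71 of the 250 bases in H2-K1, 211 in B2m and 250 in H2-D1. The table held promoters of 8 members and none for Tap2 and Nlrc5. TGACG followed by ATTGG at a distance of 10 to 30 bases was in 0.642% of 32851 promoter windows of the same length (both strands searched), in 3 of the 8 members and in 2 of the 11 other class I genes with a promoter, H2-Q7 and H2-M3. It was also in 1 of the 12 constitutive proteasome genes with a promoter, Psma1, and in 0 of the promoters of the other lists. By themselves the parts are common: TGACG was in 17.8% of windows, CCAAT in 33.8%, AANNGAAA in 21.3% and the NF-kB consensus in 7.25%. The windows of Tap1 and Psmb9 each held a TGACG and a CCAAT, but not as this pair. The count for CCAAT includes the ATTGG of each pair. H2-K1 and H2-D1 share this pair, and TGFβ moved their transcripts in opposite directions. Whether the pair has a part in either change was not tested. A match is a description of letters and does not show binding.

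Tap1, a subunit of the peptide transporter, had the largest Pam3 responses of the 10 genes after Nlrc5. Tap1 (chromosome 17, 34405996 to 34416199, plus strand, 11 exons) was at 34.03, 40.6 and 36.2 CPM in untreated and 35.7, 36.0 and 35.1 CPM in TGFβ, which overlapped. It was at 80.5, 69.9 and 70.5 CPM in Pam3 and 190.7, 191.1 and 190.6 CPM in Pam3+TGFβ, with both groups above the others and apart from each other. Pam3 raised Tap1 1.99-fold without TGFβ (log2 0.99, SE 0.0643, edgeR adjusted p 1.81e-11) and 5.36-fold with it (log2 2.42, SE 0.0658, adjusted p 9.86e-20). The TGFβ effect was -0.05 without Pam3 (SE 0.065, adjusted p 0.514) and 1.37 with Pam3 (SE 0.0631, adjusted p 1.59e-15).

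Tap2 (chromosome 17, 34422501 to 34435829, plus strand, 12 exons), the partner of Tap1 in the transporter, had smaller steps. It was at 36.5, 41.8 and 36.4 CPM in untreated, 43.0, 37.4 and 39.2 in TGFβ, 46.2, 48.7 and 49.3 in Pam3, and 79.0, 72.6 and 73.9 in Pam3+TGFβ. Pam3 raised it by 0.33 without TGFβ (SE 0.0678, edgeR adjusted p 0.000876) and by 0.92 with it (SE 0.0674, adjusted p 2.51e-11). The TGFβ effect was 0.06 without Pam3 (SE 0.068, adjusted p 0.501) and 0.65 with Pam3 (SE 0.067, adjusted p 1.1e-08). Per kb of canonical transcript, the counts of Tap1 were 1.19 to 1.27 times those of Tap2 in untreated, 1.06 to 1.23 in TGFβ, 1.83 to 2.23 in Pam3 and 3.09 to 3.37 in Pam3+TGFβ. The partners stood near the same level per length without Pam3 and apart with it.

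Tapbp (chromosome 17, 34134873 to 34148267, plus strand, 8 exons), which encodes tapasin, was at 177.0, 204.2 and 182.8 CPM in untreated, 238.2, 227.2 and 233.1 in TGFβ, 233.1, 233.4 and 238.7 in Pam3, and 456.4, 481.5 and 478.6 in Pam3+TGFβ. TGFβ and Pam3 by themselves brought it to overlapping levels above untreated, and all Pam3+TGFβ libraries stood above those. Pam3 raised Tapbp by 0.32 without TGFβ (SE 0.0467, edgeR adjusted p 1.22e-05) and by 1.02 with it (SE 0.0469, adjusted p 2.17e-15). TGFβ raised it by 0.31 without Pam3 (SE 0.0467, adjusted p 4.39e-06) and by 1.01 with Pam3 (SE 0.0469, adjusted p 2.11e-15). Of its 50-base windows, 15.6% also occur in the same-strand neighbour Zbtb22, with which the annotation gives it shared exonic bases. Antisense lncRNA genes cover 25.6% (Gm19412) and 7.39% (Gm64688) of the exonic bases of Tapbp. They also cover 14.6% of those of Psmb8 and, for Tap2, 11.2% (Gm15821) and 3.46% (Gm20496).

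Of the peptide-loading and trimming genes on a fixed list of 7 (Calr, Canx, Pdia3, Tapbpl, Erap1, Uggt1 and Ganab), Pam3 changed 0 without TGFβ in edgeR, against 18.3% of all genes, and raised 5 with it, against 20.4%. DESeq2 and limma also called 0 without TGFβ, and at an unadjusted p under 0.05 there were 0 in edgeR and DESeq2 and 1 in limma. Their median log2 change was 0.00 without TGFβ and 0.21 with it. The interaction was called higher for 2 in edgeR and for 3 with DESeq2 or limma, against 10.3% of all genes in edgeR. Tapbpl, which encodes the tapasin-related peptide editor, had the larger one. It was at 26.4 ± 3.37 CPM in untreated, 26.0 ± 1.39 in TGFβ, 24.7 ± 1.0 in Pam3 and 55.8 ± 0.336 in Pam3+TGFβ (SD, n = 3), with an interaction of 1.2 (SE 0.112, edgeR adjusted p 1.04e-08). Only the Pam3+TGFβ libraries of this gene stood above the rest. Calr, the chaperone calreticulin, had an interaction of 0.25 (SE 0.0785, adjusted p 0.0269), whose call was lost without TGFβ replicate 3 (adjusted p 0.129), Pam3 replicate 2 (0.0582), Pam3+TGFβ replicate 1 (0.107) or Pam3+TGFβ replicate 3 (0.0631), and with upper-quartile scaling (0.0743). Erap1, the aminopeptidase that trims peptides, rose with TGFβ by 0.28 without Pam3 (SE 0.0538, adjusted p 9.51e-05) and by 0.39 with it (SE 0.0537, adjusted p 1.39e-06), and its interaction was 0.11 (SE 0.076, adjusted p 0.422).

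**Figure D2:**
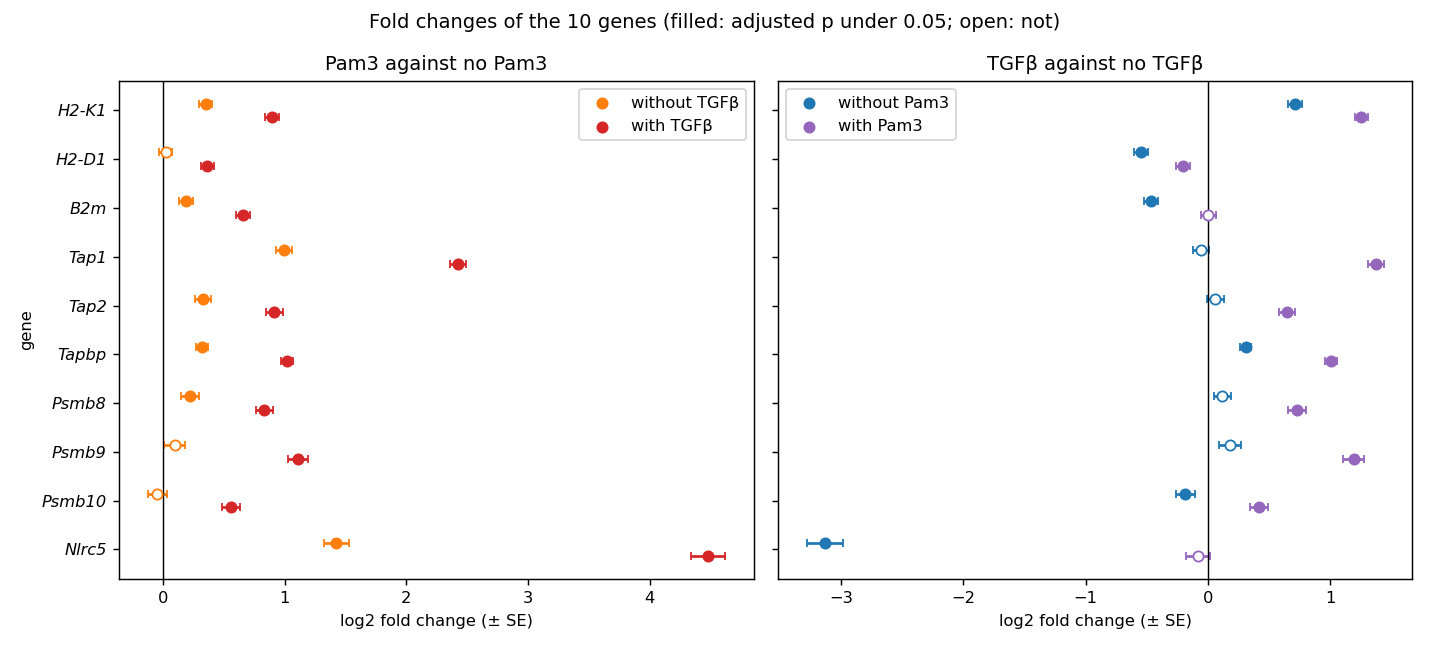
Log2 fold change (horizontal axis, ± SE from edgeR) of each gene for Pam3 against no Pam3 (left) and TGFβ against no TGFβ (right), each under both conditions of the other agent. Filled points have an adjusted p under 0.05. All 10 Pam3 responses lie further right with TGFβ, and without Pam3 the TGFβ effect ranges from -3.14 for Nlrc5 to 0.71 for H2-K1.

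The immunoproteasome subunits rose most clearly where Pam3 and TGFβ were combined. Psmb8 (chromosome 17, 34416690 to 34420428, plus strand, 6 exons), the inducible chymotrypsin-like subunit, was at 53.3, 59.2 and 46.4 CPM in untreated, 60.6, 54.8 and 57.0 in TGFβ, 65.3, 63.1 and 57.2 in Pam3, and 101.9, 105.8 and 99.6 in Pam3+TGFβ. The first 3 groups overlapped, and the Pam3+TGFβ libraries stood above them. Pam3 raised it by 0.83 with TGFβ (SE 0.0718, edgeR adjusted p 6.83e-10) and TGFβ raised it by 0.73 with Pam3 (SE 0.0717, adjusted p 5.41e-09). The Pam3 response without TGFβ was 0.22 (SE 0.0722, adjusted p 0.0312), a call lost without untreated replicate 1 (adjusted p 0.0592), untreated replicate 3 (0.19), Pam3 replicate 1 (0.156) or Pam3 replicate 2 (0.11), and in a fit of only the compared groups (0.0512). The TGFβ effect without Pam3 was 0.12 (SE 0.0722, adjusted p 0.184), and 0.21 without untreated replicate 2 (adjusted p 0.0116).

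Psmb9 (chromosome 17, 34400960 to 34406738, minus strand, 6 exons), the inducible subunit that takes the place of Psmb6, was the lowest of the 3 per length. It was at 16.2, 18.0 and 15.5 CPM in untreated, 19.5, 18.4 and 18.5 in TGFβ, 17.9, 15.8 and 19.6 in Pam3, and 38.1, 40.6 and 42.9 in Pam3+TGFβ. The Pam3 and untreated libraries overlapped, with a log2 change of 0.10 (SE 0.0879, edgeR adjusted p 0.528). With TGFβ, Pam3 raised it 2.16-fold (log2 1.11, SE 0.0853, adjusted p 5.99e-11), and with Pam3, TGFβ raised it 2.29-fold (log2 1.19, SE 0.0859, adjusted p 1.21e-11). The TGFβ effect without Pam3 was 0.18 (SE 0.0873, adjusted p 0.0902), and 0.25 without untreated replicate 2 (adjusted p 0.0281). Psmb9 lies head to head with Tap1, and their annotated exons share 743 bases on opposite strands, 19.6% of the exonic bases of Psmb9, so reads there cannot be told apart if strand was not used in counting. Without TGFβ, Pam3 raised Tap1 1.99-fold, while the value of Psmb9 was 1.07-fold. How far shared reads enter either value was not tested.

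Psmb10 (chromosome 8, 106662362 to 106665077, minus strand, 8 exons), the inducible trypsin-like subunit, had smaller values than Psmb8 and Psmb9 for the Pam3 response with TGFβ and for the TGFβ effect with Pam3, differences that were not tested. It was at 58.9, 66.1 and 53.0 CPM in untreated, 52.8, 55.3 and 48.7 in TGFβ, 60.3, 59.99 and 52.3 in Pam3, and 72.2, 79.3 and 79.0 in Pam3+TGFβ. Only the last group stood apart from the others. Pam3 raised Psmb10 by 0.56 with TGFβ (SE 0.0753, edgeR adjusted p 1.62e-06), and the value without TGFβ was -0.05 (SE 0.0754, adjusted p 0.757). TGFβ raised it by 0.42 with Pam3 (SE 0.0752, adjusted p 5.95e-05). The TGFβ effect without Pam3 was -0.18 (SE 0.0755, adjusted p 0.0445), which was called lower but is fragile. The call was lost in 15 of the 20 alternative settings, with the highest adjusted p, 0.279, without TGFβ replicate 3, and 0.27 without untreated replicate 2. It was also lost without untreated replicate 1, TGFβ replicate 1, Pam3 replicates 1 or 2, or any 1 of the 3 Pam3+TGFβ libraries, and the value ran from -0.10 to -0.26 over the 20 settings.

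The constitutive proteasome was described by a fixed list of 15 genes (14 subunits of the 20S core and the assembly factor Pomp). In edgeR, Pam3 raised 5 without TGFβ and 11 with it, against 9.62% and 20.4% of all genes. It lowered 0 in both, against 8.66% and 18.1% of all genes (0 also at an unadjusted p under 0.05, and with DESeq2 or limma). The medians were 0.19 and 0.26, and the interaction was called for 0 of the 15, with a median of 0.05 (edgeR; 0 at an unadjusted p under 0.05, and 0 called with DESeq2 or limma). DESeq2 and limma each had 1 at an unadjusted p under 0.05. The background was 15.9% of all genes called, and nothing is read from the count of 0. The interaction of Psmb5 was -0.00 (SE 0.101, edgeR adjusted p 0.991), that of Psmb6 -0.04 (SE 0.131, adjusted p 0.884) and that of Psmb7 0.06 (SE 0.0964, adjusted p 0.771). The difference between the inducible and constitutive interactions was not tested. Psmb6 was lower with TGFβ, by -0.34 without Pam3 (SE 0.0935, adjusted p 0.0042) and by -0.39 with Pam3 (SE 0.0925, adjusted p 0.00171). Without untreated replicate 2 the first value was -0.19 and was still called.

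Within a library and per kb of canonical transcript, Psmb8 stood at 1.34 to 1.39 times Psmb5 in untreated, 1.25 to 1.40 in TGFβ, 1.14 to 1.46 in Pam3 and 1.93 to 2.03 in Pam3+TGFβ. Psmb9 stood at 0.266 to 0.315 times Psmb6 in untreated, 0.382 to 0.463 in TGFβ, 0.228 to 0.264 in Pam3 and 0.654 to 0.793 in Pam3+TGFβ, and these 4 ranges did not overlap. Psmb10 stood at 1.11 to 1.23 times Psmb7 in untreated, 1.04 to 1.08 in TGFβ, 0.956 to 1.03 in Pam3 and 1.15 to 1.41 in Pam3+TGFβ. All 3 ratios were on average highest in Pam3+TGFβ. With Pam3 alone, the Psmb9 and Psmb10 ratios lay below those of untreated libraries. The ratios are values with no test.

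**Figure D3:**
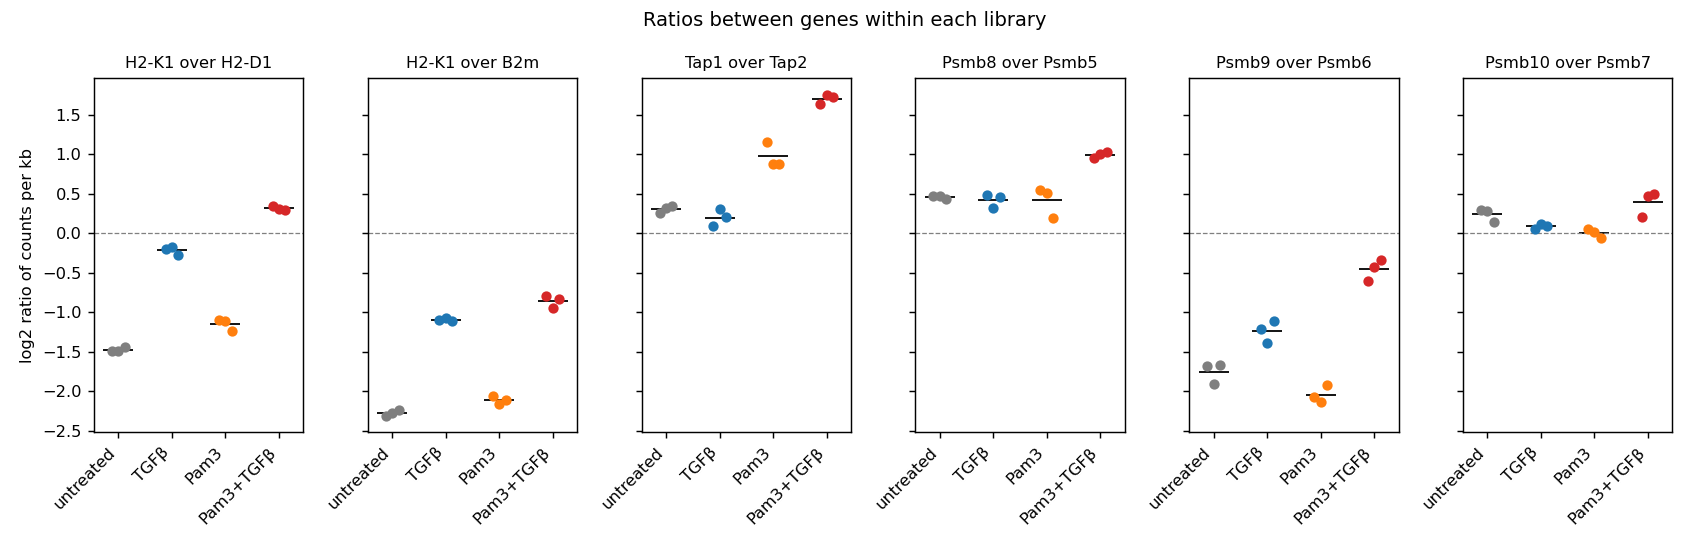
Log2 ratio of counts per kb (vertical axis, 0 means equal) between gene pairs in each of the 12 libraries, by group, with a line at the group mean. H2-K1 over H2-D1 rises from 0.354 to 0.369 in untreated to 1.22 to 1.27 in Pam3+TGFβ on the linear scale, and all 3 inducible over constitutive ratios are on average highest in Pam3+TGFβ.

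The proteasome activators were measured as a list of 4. Psme1, a subunit of the PA28 cap that interferon induces, was at 25.9 ± 2.0 CPM in untreated, 28.3 ± 2.16 in TGFβ, 27.3 ± 1.05 in Pam3 and 41.3 ± 4.02 in Pam3+TGFβ (SD, n = 3), and its interaction of 0.47 (SE 0.116, edgeR adjusted p 0.00489) was the only one called of the 4, against 15.9% of all genes. Its partner Psme2 was listed at 1.97 ± 0.593 CPM in untreated and 4.27 ± 0.776 CPM in Pam3+TGFβ. Psme2 has a close copy, Psme2b, so this level is uncertain. Pam3 raised Psme2 by 0.72 with TGFβ (SE 0.21, adjusted p 0.00767), which was not called without Pam3+TGFβ replicate 3 (adjusted p 0.0867). The value without TGFβ was 0.60, not called here but called in 5 of the 20 alternative settings. It ran from 0.37 to 0.79 over them, and the interaction of Psme2 was 0.12.

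Nlrc5 (chromosome 8, 95160984 to 95253900, plus strand, 53 exons), the class I transactivator, had the widest range of the 10 genes. It was at 7.89, 8.47 and 9.95 CPM in untreated (300, 352 and 349 counts) and at 0.968, 0.839 and 1.18 CPM in TGFβ (35, 34 and 45 counts). It was at 26.0, 23.8 and 20.6 CPM in Pam3 and 22.8, 22.3 and 21.6 CPM in Pam3+TGFβ. TGFβ libraries lay far below all others, and the Pam3 libraries with and without TGFβ overlapped. TGFβ lowered Nlrc5 to 0.114 times the untreated level (log2 -3.14, SE 0.147, edgeR adjusted p 1.87e-15), and in the presence of Pam3 its effect was -0.08 (SE 0.099, adjusted p 0.535). Pam3 raised Nlrc5 2.68-fold without TGFβ (log2 1.42, SE 0.105, adjusted p 1.81e-10) and 22.3-fold with it (log2 4.48, SE 0.14, adjusted p 1.01e-18), an interaction of 3.05 (SE 0.181, adjusted p 3.67e-12).

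The level of the transactivator and those of its known targets did not follow 1 order. Nlrc5 and B2m were both lowest in TGFβ and overlapped between the 2 groups with Pam3. In TGFβ, where Nlrc5 was at 0.996 ± 0.171 CPM, H2-K1 was at 484.6 ± 24.3 CPM and Tapbp at 232.8 ± 5.51 CPM, both above their untreated levels of 295.9 ± 21.5 and 188.0 ± 14.3 CPM (SD, n = 3). Between Pam3 and Pam3+TGFβ, the mean of Nlrc5 was 23.5 ± 2.73 and 22.2 ± 0.595 CPM, while Tap1 was at 73.7 ± 5.96 and 190.8 ± 0.282 CPM. Whether the level of Nlrc5 has a part in the other changes was not tested.

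Per kb of canonical transcript, which allows genes to be set beside each other, the order of the mean levels in untreated cells was B2m (884.0 ± 64.2 CPM per kb, SD, n = 3), H2-D1 (508.8 ± 41.8), H2-K1 (182.8 ± 13.3), Tapbp (63.1 ± 4.81), Psmb10 (45.3 ± 5.0), Psmb8 (31.1 ± 3.75), Psmb9 (12.3 ± 0.942), Tap1 (11.9 ± 1.08), Tap2 (9.62 ± 0.771) and Nlrc5 (1.16 ± 0.14). Psmb9 and Tap1 lay within their spread of each other. In Pam3+TGFβ, H2-K1 (556.5 ± 15.6) stood above H2-D1 (448.4 ± 4.26), and Tap1 (61.4 ± 0.0909) stood beside Psmb8 (60.2 ± 1.83) and Psmb10 (58.6 ± 3.08), all 3 within overlapping spreads. Reads over exon junctions can be lost because the aligner does not split reads, so these levels are biased for genes with many short exons.

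Of the other class I genes on the list, 13 of 15 were tested. Pam3 raised 4 and lowered 1 without TGFβ, against 9.62% higher and 8.66% lower over all genes, and raised 11 and lowered 1 with it, against 20.4% and 18.1%. The interaction was called higher for 7 and lower for 0, against 10.3% and 5.67% (edgeR; 1 lower at an unadjusted p under 0.05, and 0 with DESeq2 or limma), with a median of 1.25. TGFβ without Pam3 raised 3 and lowered 8, against 22.9% and 28.1%. With Pam3 it raised 9 and lowered 4, against 21.5% and 23.8%. H2-T23, which encodes the nonclassical molecule Qa-1, was at 70.0 ± 7.38 CPM in untreated, 42.3 ± 1.0 in TGFβ, 76.5 ± 0.864 in Pam3 and 106.1 ± 1.95 in Pam3+TGFβ, an interaction of 1.2 (SE 0.0881, edgeR adjusted p 1.61e-10). H2-T24 was at 10.7 ± 0.68, 7.89 ± 1.2, 31.7 ± 1.04 and 64.8 ± 2.35 CPM in the same order, with an interaction of 1.46 (SE 0.126, adjusted p 2.95e-09). H2-Q4 was at 16.2 ± 0.811, 13.4 ± 0.962, 17.6 ± 0.57 and 35.8 ± 2.04 CPM, with an interaction of 1.29 (SE 0.115, adjusted p 4.93e-09).

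H2-M2 had the largest interaction of these genes. It was at 11.9 ± 2.4 CPM in untreated, 0.285 ± 0.223 in TGFβ, 49.2 ± 3.52 in Pam3 and 8.96 ± 0.401 in Pam3+TGFβ (SD, n = 3). The interaction was 2.90 (SE 0.351, edgeR adjusted p 2.06e-05), and it ran from 2.47 without TGFβ replicate 1 to 3.62 without TGFβ replicate 3. The TGFβ libraries were near 0, at 0.083 to 0.524 CPM, so the size of this interaction is uncertain. With Pam3, the level of H2-M2 was still lower in the presence of TGFβ, by -2.46 (SE 0.155, edgeR adjusted p 1.56e-09). H2 genes are close paralogs and their counts share the uncertainty given for H2-K1 and H2-D1.

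**Figure D4:**
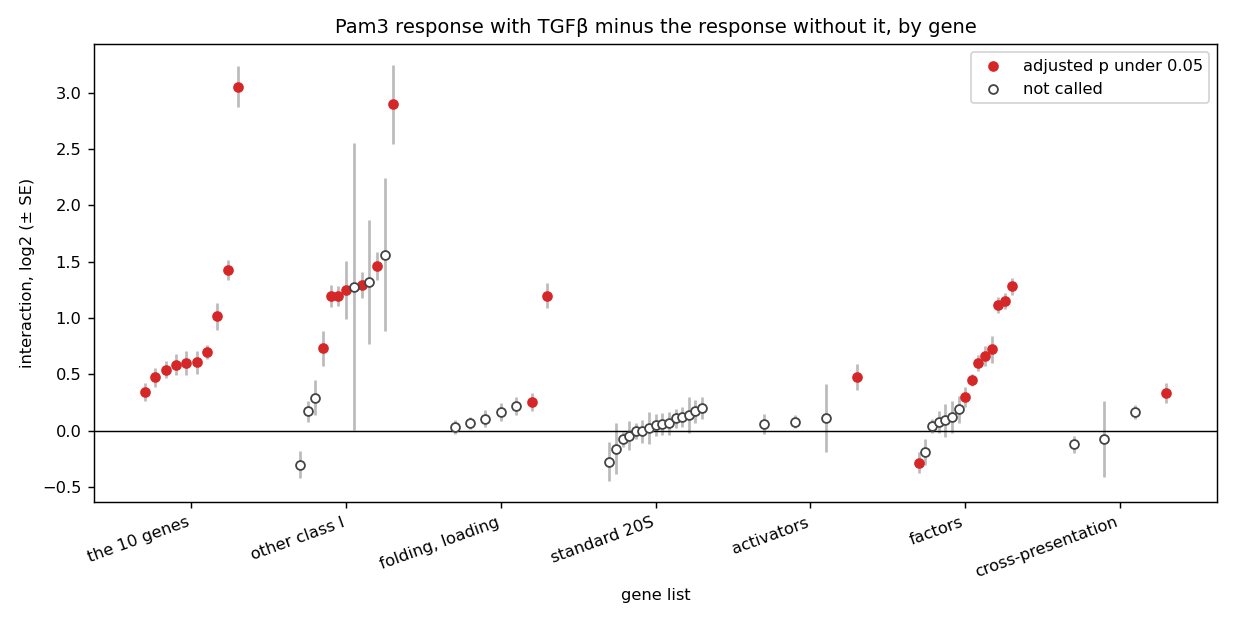
Interaction (vertical axis, log2, ± SE from edgeR), the difference of the Pam3 responses (TGFβ present minus absent), for each tested gene of 7 lists. Red points have an adjusted p under 0.05. All of the 10 genes are called higher, and 0 of the 15 constitutive proteasome genes are, against 10.3% of all genes called higher.

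Transcription factors known to act at class I promoters were listed as a further 15 genes. Pam3 raised 5 and lowered 0 without TGFβ, against 9.62% and 8.66% of all genes (edgeR; 0 lower also at an unadjusted p under 0.05, and with DESeq2 or limma). It raised 10 and lowered 2 with TGFβ, against 20.4% and 18.1%. The interaction was called higher for 8 and lower for 1, against 10.3% and 5.67%, with a median of 0.30. Irf1, an interferon-induced activator of Tap1 and Psmb9 promoters, was at 54.1, 54.4 and 54.1 CPM in untreated, 42.5, 41.5 and 41.3 in TGFβ, 61.3, 65.3 and 58.2 in Pam3, and 116.3, 117.8 and 112.5 in Pam3+TGFβ. Its 4 groups did not overlap, and its interaction was 1.28 (SE 0.078, edgeR adjusted p 5.9e-12). Its Pam3 response without TGFβ was 0.19 (SE 0.0551, adjusted p 0.0185), which was not called without Pam3 replicate 2 (adjusted p 0.134).

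Stat2, which carries type I interferon signals to the nucleus, was also highest in Pam3+TGFβ. It was at 80.3 ± 1.43 CPM in untreated, 94.9 ± 6.18 in TGFβ, 162.1 ± 7.08 in Pam3 and 425.3 ± 3.79 in Pam3+TGFβ (SD, n = 3), with an interaction of 1.15 (SE 0.0677, edgeR adjusted p 3.67e-12). Rfx5, a subunit of the RFX complex with which Nlrc5 acts, was at 18.6 ± 1.16, 15.2 ± 0.45, 18.7 ± 1.53 and 25.2 ± 2.23 CPM in that order, with an interaction of 0.72 (SE 0.123, adjusted p 0.000114). The other RFX subunits, Rfxap and Rfxank, had values of 0.12 and 0.09 that were not called. Of 4 cross-presentation genes, the interaction was called for 1, against 15.9% of all genes, which is no result about a list of this size. The gene was Sec22b (0.33, SE 0.0893, adjusted p 0.0106), and that call was lost without TGFβ replicate 1 (adjusted p 0.0505).

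The genes whose log2 levels over the 12 libraries were most like the mean profile of the 10 genes, among 9062 candidates outside the lists, were Lgals3bp (Pearson r 0.9957), Stard5 (0.9945), Ubtd1 (0.9944), Pnp2 (0.9892) and Pnp (0.9883). Those most like Nlrc5 alone were Clec4e (0.9938), Susd6 (0.9931), 4930430E12Rik (0.9924), Ifi209 (0.9916) and Tmem106a (0.9916). The 5 names of the first set do not recur in the second. These r values describe 12 libraries that fall into 4 groups, so they mainly reflect the order of 4 group means. They were picked as the highest of many and carry no test.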

How the data were processed

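Poly(A) RNA was measured in 12 libraries of 4 groups, taken from the sample titles. Per the submitters' processing notes and the series' design text, Bowtie2 2.4.1 (default settings) placed reads on GRCm39 and featureCounts of Subread 2.0.0 counted them. The annotation, the strand setting and the handling of multi-mapped reads are not given in the sources used here. The deposited counts are whole reads per gene symbol (40847 rows, 17090 with no count). The deposited normalized values are a signal that equals the raw count divided by 1 constant per library, and they served an alternative only. Reads carry no molecular identifiers, so precision rests on the spread of libraries.

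Genes were kept with filterByExpr of edgeR 4.0.16 (R 4.3.3) at a minimum count of 10 and scaled with TMM. The robust quasi-likelihood test used all 12 libraries, with a mean for each of the 4 groups, and p-values were Benjamini-Hochberg adjusted over 14749 genes. Adjusted p values in the text are from this fit, or from the alternative named with them. SE, the standard error, is the size of the log2 fold change divided by the square root of F. Replicates differed beyond sampling noise in each pair (chi-square divided by degrees of freedom 9.99 to 220, genes with at least 20 summed counts). The Pam3+TGFβ pairs ran from 9.99 to 28. In the other groups, pairs with untreated replicate 3, TGFβ replicate 2 or Pam3 replicate 1 were at 133 to 220. The remaining pairs of those groups were at 16 to 24.6. The fit was tested on simulated counts, from which no result is reported here.

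Positions, exons and lengths are from GENCODE M39, and promoter sequences from RefSeq. Alternatives were DESeq2-type size factors, upper-quartile scaling, DESeq2 1.42.0, limma-trend 3.58.1 on log2 of the normalized values with 1 added, testing without a filter, a minimum of 10 counts in every library, a block on replicate number, only the groups compared, and leaving out each library. For the summed heavy chains, all but the comparison with H2-K1 and H2-D1 as separate rows were added after the data were seen. The genes, lists, motifs and tests were chosen with earlier results of these data known. Named genes were the 10 members, 11 fixed list genes, up to 3 called genes per list with the largest interaction, and the 5 genes most correlated (mean log2 CPM at least 3, prior count 2) with the members' mean z-score and with Nlrc5. A gene that this rule names is not reported here. H2-M3, H2-Q7, Psma1, Rfxap, Rfxank and the single cell type markers were named after their values were seen.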

Additional observations from a re-analysis of the deposited data

Results flagged for a closer look

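All 10 genes answered Pam3 differently depending on TGFβ, tested as the interaction in edgeR's quasi-likelihood fit (response with TGFβ minus response without it, log2). It was 3.05 for Nlrc5 (SE 0.181, adjusted p 3.67e-12), 1.43 for Tap1 (SE 0.0902, adjusted p 1.19e-11), 1.01 for Psmb9 (SE 0.122, adjusted p 7.76e-07) and 0.70 for Tapbp (SE 0.0659, adjusted p 1.28e-08). It was 0.61 for Psmb8 (SE 0.102, adjusted p 8.91e-05), 0.60 for Psmb10 (SE 0.106, adjusted p 0.000197), 0.59 for Tap2 (SE 0.0953, adjusted p 5.97e-05) and 0.54 for H2-K1 (SE 0.0775, adjusted p 1.02e-05). The smallest were 0.47 for B2m (SE 0.0824, adjusted p 0.000144) and 0.34 for H2-D1 (SE 0.0781, adjusted p 0.00266). TGFβ lowered H2-D1, B2m and Nlrc5 in the absence of Pam3, and with Pam3 its effect was -0.21 for H2-D1 (called lower), 0.00 for B2m and -0.08 for Nlrc5 (both not called). For the other 7 genes the level with Pam3 was called higher in the presence of TGFβ.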

How the results depend on the processing

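The 990 comparisons were each of a member and contrast under an alternative. Of them, 963 kept their side of the threshold, 24 lost a call, 3 gained one and 0 called values reversed. For the other named genes the counts were 1618, 42, 18 and 0 of 1678. Values not called in either fit count as kept even if their sign changed. Psmb10, for example, ran from -0.122 to 0.041 in the Pam3 response without TGFβ. No alternative moved a count of members called, both directions together, by more than 1.5 times. The count called higher for TGFβ without Pam3 went from 2 to 4 (3 lower) without untreated replicate 2 and to 3 (3 lower) with upper-quartile scaling. The interaction was called for all 10 members in each of the 19 alternatives it could be fitted in. The Pam3 response of the summed heavy chains without TGFβ (0.15) became called with DESeq2-type size factors (0.1525), at least 10 counts in every library (0.1575), the replicate block (0.1568, adjusted p 0.0413), DESeq2 (0.1521), limma-trend (0.1623) and H2-K1 as a separate row (0.3512), and lay between 0.1171 and 0.225 in the fits that each left out 1 library. Its TGFβ effect without Pam3 reversed to 0.7115 for H2-K1 as a separate row, and that with Pam3 to -0.2054 for H2-D1, because these are single genes of the sum. Whether replicate numbers pair the samples cannot be told from 3 libraries per group. Deviations of same-numbered libraries correlated at -0.174 to 0.3 (7 of 18 pairs over 0.1). Those of other numbers correlated at -0.397 to 0.323 (8 of 36 pairs over 0.1). The block gave 2393 interaction calls over all genes against 2352 and changed no count of members called. The interaction of the 4 cross-presentation genes was called for 1 in edgeR and 2 with DESeq2. With 34 to 45 counts in the TGFβ libraries, Nlrc5 is the least precisely counted of the 10 genes.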
